A study of Homo sapiens with 6 samples.

Results

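The mRNAs of 60 named genes of mitosis, the kinetochore and the spindle were compared between QBC-939 cells given a Bmi1 shRNA and cells given a scrambled shRNA. The genes were chosen by name for their roles in mitosis, with earlier results of these data known. Each of the 60 was found on a single row among the 27238 rows of the expression table. QBC-939 is described in the labels as a cholangiocarcinoma line, that is, a cancer line of the bile duct. Cells of both groups were kept in DMEM with fetal bovine serum and harvested 48 h after treatment. The control group held 3 libraries (scrambled shRNA) and the treated group 3 libraries (Bmi1 shRNA), described as independent transfections of one line; the design text calls the control reagent an siRNA. Values are FPKM, which scale fragments to transcript length and to library size, so levels of different genes may be compared per length. They are relative to the mRNA of each library: in bulk cultures more cells in mitosis and more mRNA of these genes per cell cannot be told apart.

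Entry into mitosis is driven by CDK1 with its B-type cyclins. The spindle assembly checkpoint then holds back the anaphase-promoting complex until every kinetochore is attached to microtubules, after which cohesin is cut, the sisters part and the cell divides. Most genes of this programme are transcribed late in the cell cycle. They are repressed in resting cells by the DREAM complex and switched on in G2 by the MuvB core with B-MYB and FOXM1, which reach them through the cell cycle genes homology region (CHR element, TTTGAA), often beside boxes bound by NF-Y (CCAAT). BMI1 belongs to Polycomb repressive complex 1, which silences genes through chromatin, among them the CDKN2A locus that restrains the cell cycle.

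Many of the promoters searched, though not all, held the motifs of that late cell cycle programme. Of the 60 genes, 52 had a window in the RefSeq promoter table (GRCh38.p14), which runs from 250 bases before to 50 after the gene start; for 9 genes with several starts the first one listed was used. TTTGAA, searched on both strands, was found in 34 of 52 windows (65.4%), against 12.1% of 15843 protein-coding windows and 8.90% of the 7608 windows of genes tested here. CCAAT, also on both strands, was found in 39 of 52 (75%), against 36.4% and 37.3%. Both stood together in 26 of 52 (50%), against 5.02% and 3.88%. E2F sites written as TTTGGCGC or TTTCCCGC, on both strands, were found in 3 of 52 (5.77%), against 3.06% and 4.15%. The CHR matches lay close to the start: in 26 of 52 windows (50%) a match began within the 60 bases before or the 50 after it, against 3.57% of all protein-coding windows. None of the 3 motifs, as spelled, contains another. These matches are a description of letters and not of bound sites. Among members that were called higher with Bmi1 shRNA 24 of 33 windows held TTTGAA, among members called lower 3 of 5, and among those not called 5 of 10.

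**Figure D1:**
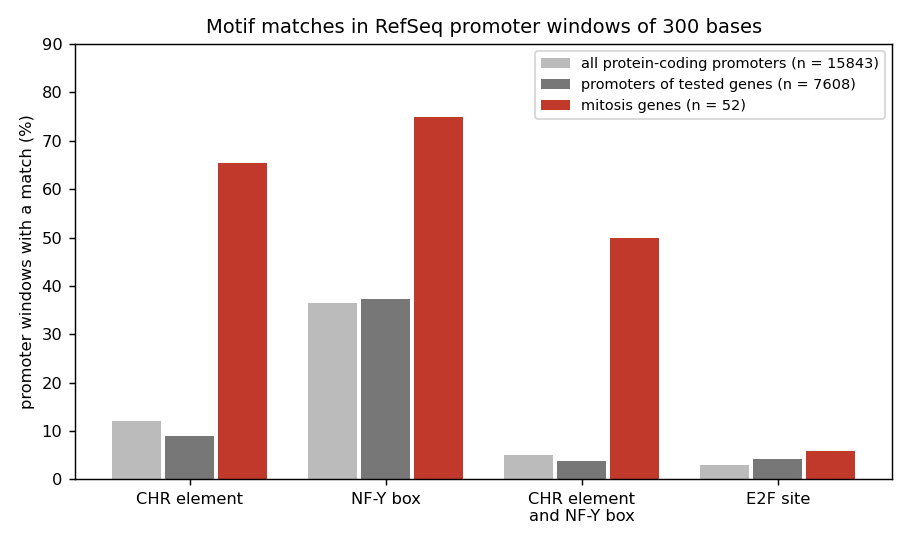
Share of promoter windows (vertical axis, %) with a match to the CHR element, the NF-Y box, both, or the E2F site, for all protein-coding genes, the genes tested here and the mitosis genes. The bars of the mitosis genes stand at 65.4%, 75%, 50% and 5.77%.

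Upstream stretches of 4 genes are shown because these had the largest rises (TOP2A and CDK1) and the largest falls (CDC25A and NCAPD2) among the called members. Each holds the 250 bases before the start, 5′ to 3′ on the strand of the gene, with every match to the CHR element, the NF-Y box or the E2F site, on either strand, in capitals. They lie in GRCh38.p14 at chr17:40417897-40418146 on the reverse strand, chr10:60778081-60778330 on the forward strand, chr3:48188418-48188667 on the reverse strand and chr12:6493852-6494101 on the forward strand.
TOP2A: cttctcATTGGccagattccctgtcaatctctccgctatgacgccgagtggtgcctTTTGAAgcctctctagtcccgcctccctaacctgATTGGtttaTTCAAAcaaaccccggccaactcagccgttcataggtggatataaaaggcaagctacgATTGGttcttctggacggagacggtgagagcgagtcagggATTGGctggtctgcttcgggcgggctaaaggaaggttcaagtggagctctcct
CDK1: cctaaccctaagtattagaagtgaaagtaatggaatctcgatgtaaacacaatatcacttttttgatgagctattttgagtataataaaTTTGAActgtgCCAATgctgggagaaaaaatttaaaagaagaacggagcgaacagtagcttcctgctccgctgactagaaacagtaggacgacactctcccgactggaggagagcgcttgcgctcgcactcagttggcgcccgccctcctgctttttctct
CDC25A: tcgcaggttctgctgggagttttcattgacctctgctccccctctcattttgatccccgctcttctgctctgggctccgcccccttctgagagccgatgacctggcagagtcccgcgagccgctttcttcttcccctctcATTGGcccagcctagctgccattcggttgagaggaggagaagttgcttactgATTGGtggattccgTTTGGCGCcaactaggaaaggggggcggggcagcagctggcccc
NCAPD2: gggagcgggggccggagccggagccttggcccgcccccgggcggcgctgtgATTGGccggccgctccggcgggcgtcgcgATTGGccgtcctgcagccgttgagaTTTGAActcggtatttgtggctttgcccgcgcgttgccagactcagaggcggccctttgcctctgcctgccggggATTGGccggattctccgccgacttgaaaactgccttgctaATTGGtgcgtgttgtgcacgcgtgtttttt
TOP2A has CHR matches that begin at -194 and -151, counted from the start, and NF-Y boxes at -244, -160, -93 and -53. CDK1 has a CHR match at -161 from the start listed and an NF-Y box at -150. NCAPD2, which fell, also carries a CHR match, at -145, and 4 NF-Y boxes. CDC25A has no TTTGAA in this window, but holds NF-Y boxes at -110 and -58 and an E2F site at -44. Members that rose and members that fell therefore both include genes with these motifs.

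The knockdown was visible in every treated library. BMI1 measured 6.65, 5.34 and 6.09 FPKM across the 3 controls and 1.49, 1.19 and 2.65 FPKM across the 3 knockdown libraries, 0.295 times the control mean (log2 fold change -1.37, standard error 0.19; limma, adjusted p = 0.00162; exact two-sided permutation p = 0.1, the smallest that 3 against 3 libraries allow). The FPKM of a library summed to 332910 to 341268 in control and 352800 to 360371 with Bmi1 shRNA; read depth is unknown, so no counting interval is given. All 7 bile duct epithelial markers had a mean of at least 1 FPKM, with sums of 1777 to 1937 FPKM in control and 1517 to 1750 FPKM with Bmi1 shRNA; KRT7 stood at only 2.06 to 3.45 FPKM. KRT19, KRT18 and CDH1 were called lower, at 0.735, 0.842 and 0.511 times control (limma, adjusted p = 0.00155, 0.0031 and 0.00203), and were called lower with the GC and length trend removed too. None of the markers read for fibroblasts (3 of 6), endothelium (2 of 3) or hepatocytes (2 of 3) reached a mean of 1 FPKM. Of the 4 leukocyte markers CD68 and LYZ were read, with sums of 1427 to 1529 FPKM in control and 1517 to 1578 FPKM with Bmi1 shRNA. LYZ, which epithelia also secrete, stood at 1416 to 1570 FPKM, with overlapping groups, and CD68 at 11.1 to 11.96 FPKM in control and 6.78 to 8.39 FPKM with Bmi1 shRNA. CD68 was called lower (limma, adjusted p = 0.00198), also with the GC and length trend removed (0.00539). LYZ was not called (limma, adjusted p = 0.258). With that trend removed LYZ was called lower (log2 fold change -0.53, limma, adjusted p = 0.000621). The part of these levels in the results was not tested.

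Most mitosis genes were higher in cells with less BMI1. Of the 60, 56 had a mean of at least 1 FPKM and were tested; 39 rose, 5 fell and 12 were not called (limma, log2(FPKM + 1), with calls at 0.05 after Benjamini-Hochberg adjustment among 11016 tested rows). That is 69.6% higher and 8.93% lower, where 28.6% of all tested rows were called higher and 28.5% lower. The list was chosen with earlier results of these data known, so the shares given here are a description and no set test was made. The median log2 fold change of tested members was 0.61, ranging from -0.65 to 1.48, against -0.02 over all tested rows. 11 members (19.6%) rose by at least 1 on the log2 scale, where 1.92% of all tested rows did. The 3 treated libraries all lay above the 3 controls for 42 of the 56 tested members (75%; 32.3% of all tested rows) and all below for 7 (12.5%; 33.1% of all tested rows). When tested against a fold of 1.2 rather than against no change, 31 were called higher (12.9% of all tested rows) and 1 lower (7.92%). KIF18A and KIF20B averaged under 1 FPKM in control and passed the filter only through their treated libraries, so their place in these counts is no support. The count of rises stayed between 37 and 40 when any 1 library was left out. The count of falls was 3 without control replicate 3 or Bmi1 shRNA replicate 2, and 7 without Bmi1 shRNA replicate 3.

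**Figure D2:**
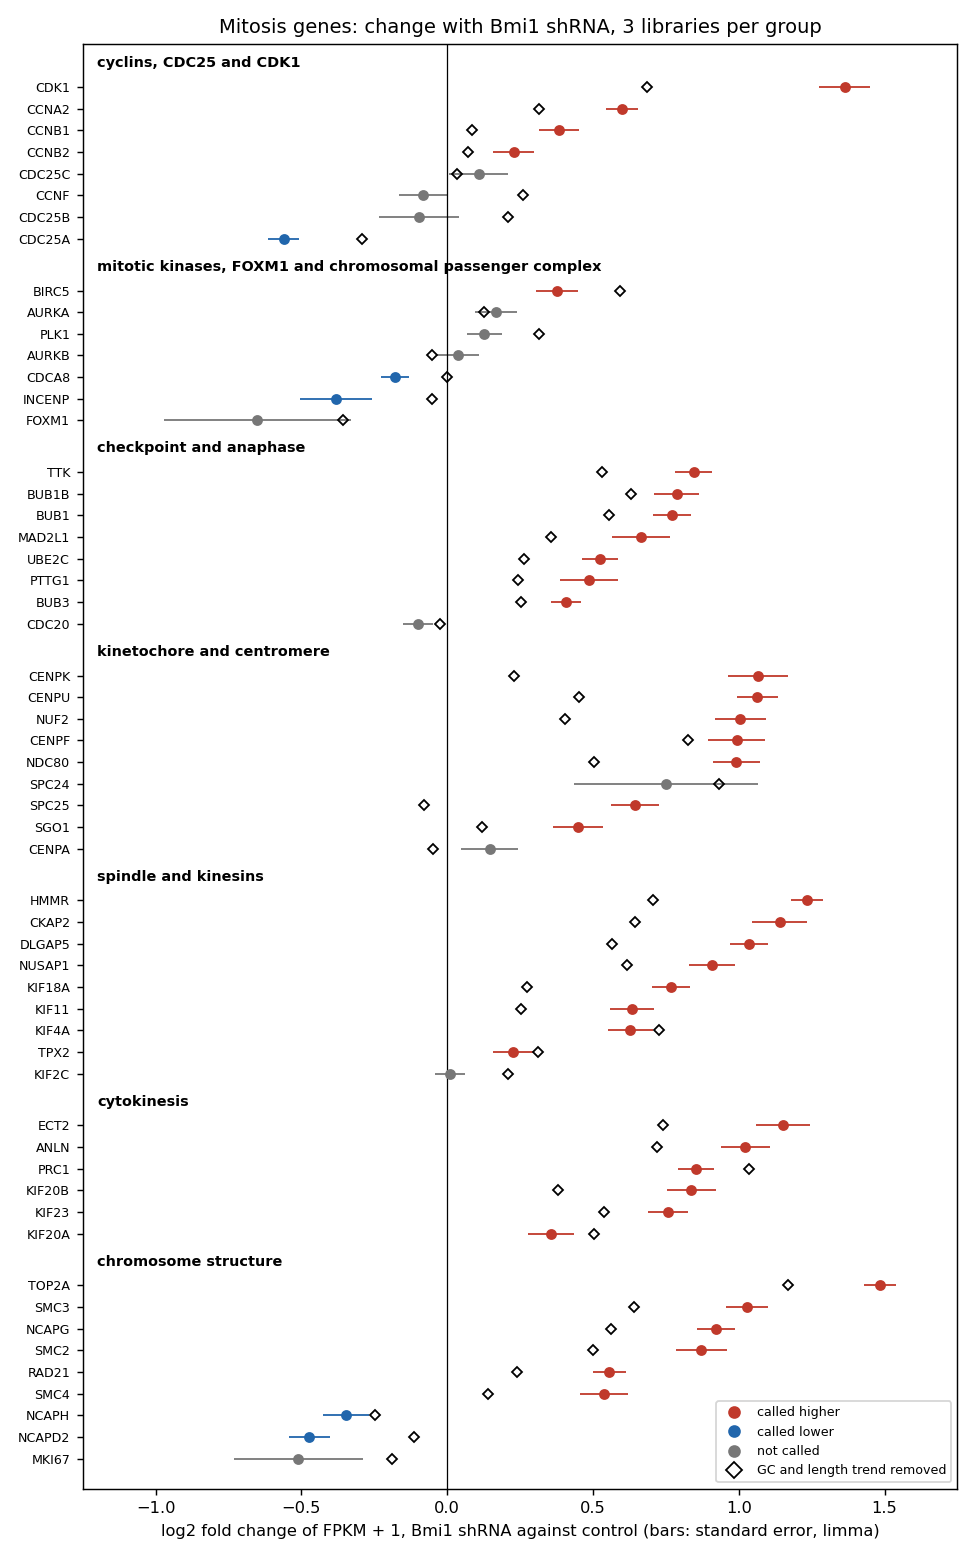
Log2 fold change of FPKM + 1 (horizontal axis) for the 56 tested mitosis genes by role; circles with bars are limma estimates with standard errors from 3 libraries per group, red called higher, blue called lower, grey not called. Open diamonds give the value with the trend with GC content and length removed; most lie nearer to 0 than the circle, while those of PRC1, BIRC5, KIF4A and KIF20A are among the ones that lie farther from it.

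Direction went along with the base composition of the transcript, as it did for genes in general. All 32 tested members with under 45% GC rose, and none fell, where 58% of all tested genes under that content rose and 5.42% fell. Of the 24 with 45% GC or more, 7 rose and 5 fell, where 15.6% of such genes rose and 40.6% fell. The limit of 45% was chosen after the values were seen. The median log2 fold change was 0.86 for members under 45% against 0.34 for all genes under it, and 0.07 for members at or over it against -0.17. Across the 56 members Spearman's rho of log2 fold change with GC content was -0.817, and across all tested genes -0.473; both are across genes, which share libraries, and carry no test. To set this trend aside, each library's deviation from the gene mean was regressed on GC content and length and the fitted part subtracted, which also takes away any true change that goes with them. After this step 35 members were called higher (62.5%; 19.1% of all genes) and 2 lower (3.57%; 20.5% of all genes), with a median log2 fold change of 0.31. Of the 39 rises 32 were called again, while CCNB1, CCNB2, PTTG1, CENPK, SGO1, SMC4 and SPC25 were not. SPC25 turned from 0.64 to -0.08. CCNF, PLK1 and KIF2C were called higher only after it. CDC25A and NCAPH were the falls still called. Under 45% GC 26 of the 32 members were called higher after this step, where 23.6% of all genes under that content were. At 45% GC or more 9 of the 24 were. Across the members rho of log2 fold change with GC content was -0.438 after it, so a trend with GC content remained within the members. Whether the trend itself arose in the cells or in the libraries was not tested.

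**Figure D3:**
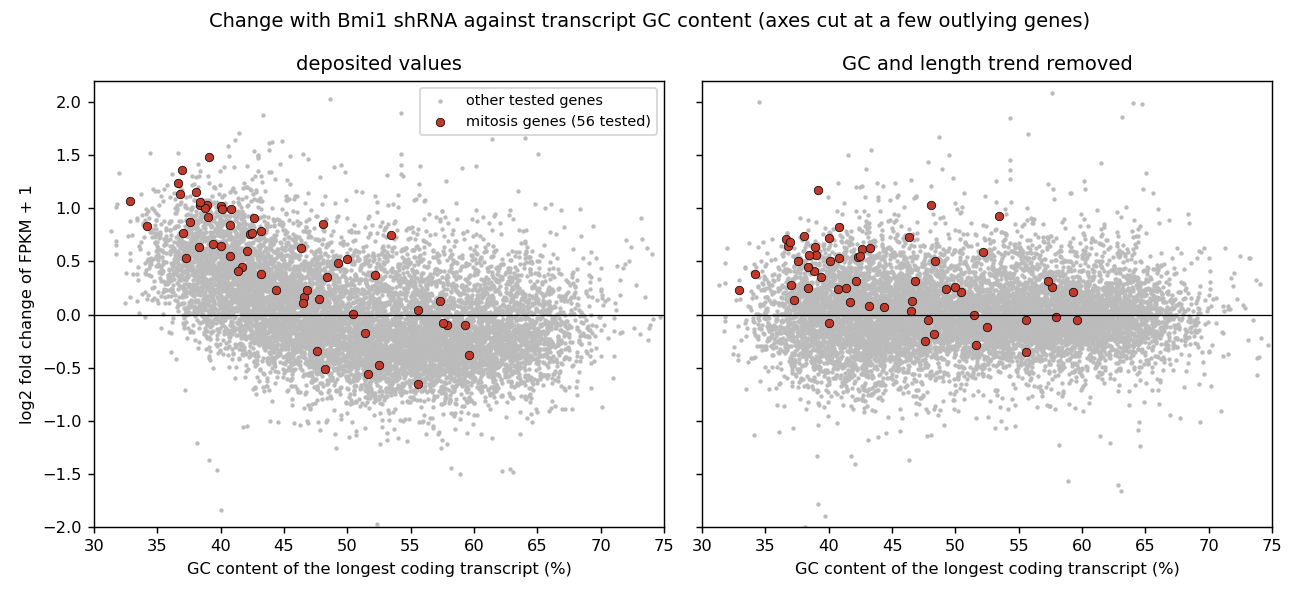
Log2 fold change (vertical axis) against GC content of the longest coding transcript (horizontal axis, %) for all tested genes (grey) and the 56 tested mitosis genes (red), in the deposited values (left) and with the GC and length trend removed (right). On the left the mitosis genes under 45% GC all lie above 0; on the right they still lie mostly above it.

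In the deposited values the genes of mitotic entry changed in a graded way. CDK1 rose most, its cyclins less, and the activating phosphatases did not follow. CDK1, the kinase that drives entry into mitosis, measured 7.06, 5.62 and 6.03 FPKM across the 3 controls and 17.8, 18.3 and 16.6 FPKM across the 3 knockdown libraries. Every treated library was more than 2 times the highest control, and the mean was 2.82-fold higher (log2 fold change 1.36, standard error 0.087; limma, adjusted p = 0.000247). CCNA2, cyclin A2 of S phase and early mitosis, measured 9.83, 10.1 and 9.33 FPKM in control and 15.1, 15.7 and 15.1 FPKM with Bmi1 shRNA, a 1.57-fold rise with closely grouped libraries. CCNB1, the main mitotic cyclin, measured 33.1, 32.4 and 33.8 FPKM in control and 45.9, 44.8 and 39.8 FPKM with Bmi1 shRNA (1.32-fold). CCNB2, a further B-type cyclin, measured 26.8, 25.3 and 24.8 FPKM in control and 31.98, 31.1 and 27.7 FPKM with Bmi1 shRNA (1.18-fold; limma, adjusted p = 0.0312). For both B-type cyclins Bmi1 shRNA replicate 3 was the lowest treated library, though still above every control. The call of CCNB2 was lost on omitting control replicate 2 or 3, or treated replicate 1 or 2 (limma, adjusted p up to 0.0969), with libraries scaled to a total of 1000000 (0.104) and with no filter on low values (0.0583). CDC25A, a phosphatase that activates CDKs, went the other way. It measured 8.397, 8.71 and 8.69 FPKM in control and 5.67, 5.53 and 5.34 FPKM with Bmi1 shRNA, with a mean 0.641 times control (log2 fold change -0.56, standard error 0.053; limma, adjusted p = 0.000511). The remaining 3 genes of the group overlapped between groups and were not called. CDC25B, which starts CDK1 activation, stood at 39.5 ± 2.37 and 37.3 ± 6.904 FPKM (SD, n = 3 each), with Bmi1 shRNA replicate 1 low at 29.6 FPKM. CDC25C, its partner in late G2, stood at 5.17 ± 0.281 and 5.68 ± 0.815 FPKM, and CCNF, cyclin F of an SCF ubiquitin ligase, at 6.104 ± 0.615 and 5.69 ± 0.368 FPKM. With the GC and length trend removed CDK1 and CCNA2 stayed called (log2 fold change 0.69 and 0.32). CCNB1 and CCNB2 were no longer called (0.08 and 0.07). CDC25A was still called lower (-0.29) and CCNF was called higher (0.26). CDC25B and CDC25C were again not called (0.21 and 0.03).

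The kinases PLK1, AURKA and AURKB were not called, and the chromosomal passenger complex was split. PLK1, the polo-like kinase of mitotic entry, measured 13.9, 14.4 and 13.7 FPKM in control and 14.6, 15.3 and 16.3 FPKM with Bmi1 shRNA, every treated library above the controls but by a small step (log2 fold change 0.13, standard error 0.061; limma, adjusted p = 0.117). PLK1 was called with upper quartile scaling (limma, adjusted p = 0.0462), with quantile normalization (0.0469) and with the GC and length trend removed (0.00495), and in none of the other alternatives without a replicate block. AURKA, the Aurora kinase of spindle poles, stood at 15.4 ± 0.105 and 17.5 ± 1.501 FPKM (SD, n = 3 each) and was not called (limma, adjusted p = 0.0863), though it was without Bmi1 shRNA replicate 3 (limma, adjusted p = 0.0143) and with library weights (0.0376). AURKB, the kinase of the passenger complex, stood at 24.03 ± 1.69 and 24.7 ± 1.41 FPKM, with overlapping groups. Among its partners, BIRC5 (survivin) rose, from 8.503, 8.22 and 7.96 FPKM to 11.2, 10.01 and 11.8 FPKM (1.34-fold; limma, adjusted p = 0.00513). The scaffold INCENP measured 12.3, 14.2 and 13.3 FPKM in control and 9.21, 8.75 and 12.1 FPKM with Bmi1 shRNA and was called lower (0.757 times control; limma, adjusted p = 0.0369). Bmi1 shRNA replicate 3 nearly reached the controls. The call was lost on omitting control replicate 2 or 3, or treated replicate 1 or 2 (limma, adjusted p up to 0.108), and with no filter on low values (0.0886). CDCA8 (borealin) measured 49.8, 50.2 and 52.5 FPKM in control and 45.1, 44.1 and 45.2 FPKM with Bmi1 shRNA, a fall to 0.881 times control whose call ended without control replicate 3 or Bmi1 shRNA replicate 2 (limma, adjusted p up to 0.0755). With the GC and length trend removed, the log2 fold changes of INCENP and CDCA8 were -0.05 and -0.000486 and neither was called, while that of BIRC5 went from 0.38 to 0.59.

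FOXM1, the transcription factor that activates many late cell cycle genes, did not rise with them. It measured 24.7, 27.2 and 26.3 FPKM across the 3 controls and 18.8, 9.06 and 24.6 FPKM across the 3 knockdown libraries. All treated libraries lay below the controls, but they ranged widely, with Bmi1 shRNA replicate 2 far below the other two and replicate 3 next to the lowest control. The log2 fold change of -0.65 had a standard error of 0.32 and was not called (limma, adjusted p = 0.126). It was called without Bmi1 shRNA replicate 3 (log2 fold change -0.94; limma, adjusted p = 0.0363) and was -0.26 without replicate 2 (limma, adjusted p = 0.125). The gene overlaps ITFG2 on the other strand in GENCODE 29. The sources used here do not say whether counting used strand.

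The spindle assembly checkpoint members TTK, BUB1, BUB1B, MAD2L1 and BUB3 rose together. The mRNA of CDC20, whose protein they act on, was not called. TTK (MPS1), the kinase at the head of the checkpoint, measured 0.932, 1.07 and 1.06 FPKM across the 3 controls and 2.61, 2.75 and 2.53 FPKM across the 3 knockdown libraries, 2.58-fold higher (log2 fold change 0.85, standard error 0.063; limma, adjusted p = 0.000303). BUB1, a further checkpoint kinase, measured 1.57, 1.56 and 1.56 FPKM in control and 3.11, 3.61 and 3.42 FPKM with Bmi1 shRNA (2.16-fold), with control libraries that differed by less than 0.01 FPKM. BUB1B (BUBR1) of the mitotic checkpoint complex measured 2.22, 2.54 and 2.105 FPKM in control and 5.03, 4.35 and 4.63 FPKM with Bmi1 shRNA (2.04-fold); its exons are shared with the readthrough gene BUB1B-PAK6, so the value is uncertain. MAD2L1 (MAD2) rose 1.68-fold and BUB3 1.35-fold, again with no overlap. CDC20, which activates the anaphase-promoting complex and is what the checkpoint holds back, measured 62.4, 64.98 and 62.1 FPKM in control and 56.5, 61.2 and 58.9 FPKM with Bmi1 shRNA. Its libraries were slightly lower but not called (log2 fold change -0.10, standard error 0.052; limma, adjusted p = 0.145). It was called lower with libraries scaled to a total of 1000000 (limma, adjusted p = 0.0270) and with quantile normalization (0.0104). UBE2C, the E2 enzyme of that complex and the most abundant of the 60 mRNAs, measured 109, 99.2 and 103 FPKM in control and 154, 153 and 141 FPKM with Bmi1 shRNA (1.44-fold; limma, adjusted p = 0.000883). PTTG1 (securin), which restrains separase, rose 1.41-fold from 38.2 ± 3.97 to 53.9 ± 4.98 FPKM (SD, n = 3 each). Near-identical copies of PTTG1 exist (PTTG2, PTTG3P), and its reads may be shared with them. In all, 7 of these 8 genes rose and none fell. Outside the members the direction was mixed: of 20 other genes of the checkpoint and the anaphase-promoting complex 9 rose and 5 fell. Among those that fell was MAD1L1 (MAD1), named after its values were seen, from 5.01 ± 0.446 to 3.67 ± 0.364 FPKM (limma, adjusted p = 0.0117). With the GC and length trend removed it was not called (log2 fold change -0.10).

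Kinetochore and centromere genes had a median log2 fold change of 0.99 over 9 tested genes, of which 7 rose and none fell. With the GC and length trend removed the median was 0.41 and 4 of the 9 were called higher. In the NDC80 complex, which grips microtubules, NDC80 measured 2.09, 2.31 and 1.903 FPKM in control and 5.07, 5.63 and 4.79 FPKM with Bmi1 shRNA (2.46-fold) and NUF2 measured 1.15, 1.47 and 1.18 FPKM in control and 3.26, 3.91 and 3.49 FPKM with Bmi1 shRNA (2.8-fold; limma, adjusted p = 0.000412). Both stood at 1.15 to 2.31 FPKM in control and at least 3.26 FPKM in every treated library. Their partners at the inner end of the complex were more abundant, and only SPC25 of the pair was called. SPC25 measured 11.7, 10.3 and 10.8 FPKM in control and 18.5, 18.7 and 15.9 FPKM with Bmi1 shRNA (1.62-fold; limma, adjusted p = 0.00121), and with the GC and length trend removed its sign turned (log2 fold change -0.08; limma, adjusted p = 0.267). SPC24 measured 7.23, 2.56 and 6.99 FPKM in control and 9.37, 8.94 and 9.84 FPKM with Bmi1 shRNA. Control replicate 2 was far below the other controls, and the log2 fold change of 0.75 had a standard error of 0.32 and was not called (limma, adjusted p = 0.0821); without that library it was 0.36 and called (limma, adjusted p = 0.0120). CENPU and CENPK, subunits of the constitutive centromere network, were among the strongest rises. CENPU measured 2.804, 2.73 and 2.599 FPKM in control and 6.51, 7.39 and 6.404 FPKM with Bmi1 shRNA (2.497-fold). CENPK measured 1.67, 1.63 and 1.57 FPKM in control and 3.98, 5.38 and 4.19 FPKM with Bmi1 shRNA (2.79-fold), and at 32.9% GC, the lowest of the members, its log2 fold change went from 1.07 to 0.23 with the trend removed and was no longer called. CENPF of the outer kinetochore rose 2.73-fold and kept a log2 fold change of 0.83 after that removal. CENPA, the centromeric histone, stood at 8.82 ± 0.246 and 9.92 ± 1.44 FPKM (SD, n = 3 each), not called; it shares exon sequence with SLC35F6. SGO1 (shugoshin), which guards centromeric cohesion, rose 1.66-fold.

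4 members were too low for the test, below a mean of 1 FPKM over the 6 libraries, and each was higher in every treated library. CENPE, the kinetochore kinesin of chromosome congression, measured 0.1103, 0.208 and 0.1696 FPKM in control and 0.587, 0.6102 and 0.653 FPKM with Bmi1 shRNA. SGO2 (shugoshin 2) measured 0.289, 0.399 and 0.2305 FPKM in control and 0.906, 1.04 and 0.945 FPKM with Bmi1 shRNA. ASPM, a spindle pole protein, measured 0.252, 0.323 and 0.146 FPKM in control and 0.772, 0.766 and 0.773 FPKM with Bmi1 shRNA. KIF14, a kinesin of the midbody, measured 0.241, 0.356 and 0.2796 FPKM in control and 0.825, 0.523 and 0.632 FPKM with Bmi1 shRNA. Without a filter on low values all 4 were called higher (limma, adjusted p from 0.00255 to 0.0282), though with unknown depth the precision of such low levels cannot be stated.

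Spindle proteins and kinesins rose in 8 of 9 tested genes, 1 of which, KIF18A, was tested only because of its treated values. HMMR, a spindle pole protein, measured 1.91, 1.92 and 2.02 FPKM across the 3 controls and 5.84, 5.88 and 6.09 FPKM across the 3 knockdown libraries, 3.05-fold higher with little spread (log2 fold change 1.24, standard error 0.055; limma, adjusted p = 0.000158). DLGAP5 (HURP), which stabilises kinetochore microtubules, measured 1.72, 1.57 and 1.76 FPKM in control and 4.24, 4.77 and 4.49 FPKM with Bmi1 shRNA (2.67-fold). CKAP2, a further spindle-associated protein, measured 2.77, 2.81 and 2.17 FPKM in control and 7.001, 7.28 and 6.34 FPKM with Bmi1 shRNA (2.66-fold). KIF18A, the kinesin-8 of chromosome alignment, measured 0.638, 0.637 and 0.634 FPKM in control and 1.71, 1.95 and 1.698 FPKM with Bmi1 shRNA (2.81-fold). In each of these genes the lowest treated library was at least 2 times the highest control. NUSAP1, a microtubule bundler, rose 2.01-fold, KIF11, which pushes the poles apart, 1.68-fold, and KIF4A, a chromokinesin, 1.65-fold. KIF4A has a near-identical intronless copy, KIF4B. TPX2, which activates Aurora A, was high already (33.6 to 35.3 FPKM in control) and rose only 1.18-fold (limma, adjusted p = 0.032). Its call was lost on omitting any 1 control library (limma, adjusted p up to 0.0965), with libraries scaled to a total of 1000000 (0.161) and with no filter on low values (0.0607). KIF2C (MCAK), which takes microtubules apart, did not differ beyond its spread: 21.9 ± 0.731 and 22.02 ± 0.389 FPKM (SD, n = 3 each; log2 fold change 0.01, standard error 0.051). With the GC and length trend removed all 9 were called higher, KIF2C among them (log2 fold change 0.21; limma, adjusted p = 0.00953).

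All 6 tested genes of cytokinesis rose, and all were called higher with the GC and length trend removed; 1 of them, KIF20B, was tested only because of its treated values. ECT2, which activates RHOA at the cleavage furrow, measured 6.51, 7.9 and 6.13 FPKM in control and 15.8, 16.3 and 16.9 FPKM with Bmi1 shRNA (2.39-fold; limma, adjusted p = 0.000332). ANLN (anillin), scaffold of the contractile ring, measured 2.21, 2.77 and 2.16 FPKM in control and 6.07, 5.61 and 5.85 FPKM with Bmi1 shRNA (2.46-fold). PRC1, here the microtubule crosslinker of the spindle midzone and not the Polycomb complex of that name, measured 7.14, 7.59 and 6.65 FPKM in control and 13.8, 13.7 and 13.5 FPKM with Bmi1 shRNA (1.92-fold). Its transcript, at 48.1% GC, is nearer the average of all genes than most members, and its log2 fold change went from 0.85 to 1.03 with the trend removed. It shares exon sequence with AC068831.7 on its own strand and with PRC1-AS1 on the other. KIF23 (MKLP1) of centralspindlin measured 1.96, 2.04 and 1.78 FPKM in control and 4.21, 3.74 and 3.89 FPKM with Bmi1 shRNA (2.05-fold). KIF20B rose 2.63-fold and KIF20A (MKLP2), which brings Aurora B to the midzone, 1.33-fold; KIF20A shares exon sequence with BRD8 and CDC23 on the other strand.

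Among genes of chromosome structure TOP2A and the members SMC2, SMC3 and SMC4 rose, and part of condensin I fell. TOP2A, the topoisomerase that untangles sister DNA, had the largest rise of the 56 tested members. It measured 5.22, 5.48 and 4.999 FPKM across the 3 controls and 16.1, 16.6 and 16.5 FPKM across the 3 knockdown libraries, 3.14-fold higher, with every treated library at least 16.1 FPKM and no control above 5.48 FPKM (log2 fold change 1.48, standard error 0.055; limma, adjusted p = 9.50e-05). With the GC and length trend removed its log2 fold change was 1.17. In condensin I, which compacts mitotic chromosomes, the subunits parted. NCAPG measured 1.43, 1.39 and 1.63 FPKM in control and 3.84, 3.56 and 3.7 FPKM with Bmi1 shRNA (2.49-fold; limma, adjusted p = 0.00028). The ATPase subunits SMC2 and SMC4 rose 2.62-fold and 1.62-fold. NCAPD2 measured 16.7, 18.97 and 17.98 FPKM in control and 13.1, 11.8 and 12.9 FPKM with Bmi1 shRNA, 0.704 times control (log2 fold change -0.47, standard error 0.070; limma, adjusted p = 0.00202). NCAPH measured 6.93, 7.42 and 6.18 FPKM in control and 4.86, 5.47 and 5.17 FPKM with Bmi1 shRNA, 0.754 times control (limma, adjusted p = 0.0101). The ratio of NCAPG to NCAPD2, looked at after their values were seen, was 0.0856, 0.0731 and 0.0908 in the control libraries and 0.293, 0.302 and 0.287 in the treated ones. The GC contents were 39.0% for NCAPG, 37.6% for SMC2 and 37.3% for SMC4, against 52.5% for NCAPD2 and 47.6% for NCAPH. With the trend removed NCAPG, SMC2 and NCAPH kept their calls, SMC4 and NCAPD2 did not (log2 fold change 0.14 and -0.11). In cohesin, the ring that holds sister chromatids, SMC3 measured 4.18, 4.95 and 4.26 FPKM in control and 9.91, 10.6 and 9.902 FPKM with Bmi1 shRNA (2.27-fold). Its ATPase partner SMC1A, from the list of other mitotic genes and named after its values were seen, measured 24.4, 26.1 and 16.8 FPKM in control and 9.64, 15.1 and 18.9 FPKM with Bmi1 shRNA, with overlapping groups (log2 fold change -0.62; limma, adjusted p = 0.0835, not called). RAD21, the subunit cut by separase, measured 19.9, 18.9 and 19.5 FPKM in control and 27.7, 29.3 and 30.1 FPKM with Bmi1 shRNA (1.49-fold; limma, adjusted p = 0.000578). MKI67, which encodes the proliferation marker Ki-67, did not share this direction. It measured 7.43, 11.04 and 8.13 FPKM in control and 6.08, 4.13 and 7.802 FPKM with Bmi1 shRNA, with Bmi1 shRNA replicate 2 the lowest and control replicate 2 the highest of the 6 (log2 fold change -0.51, standard error 0.22; limma, adjusted p = 0.0889). The groups overlapped, and it was called lower only without Bmi1 shRNA replicate 3 (log2 fold change -0.69; limma, adjusted p = 0.0357).

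**Figure D4:**
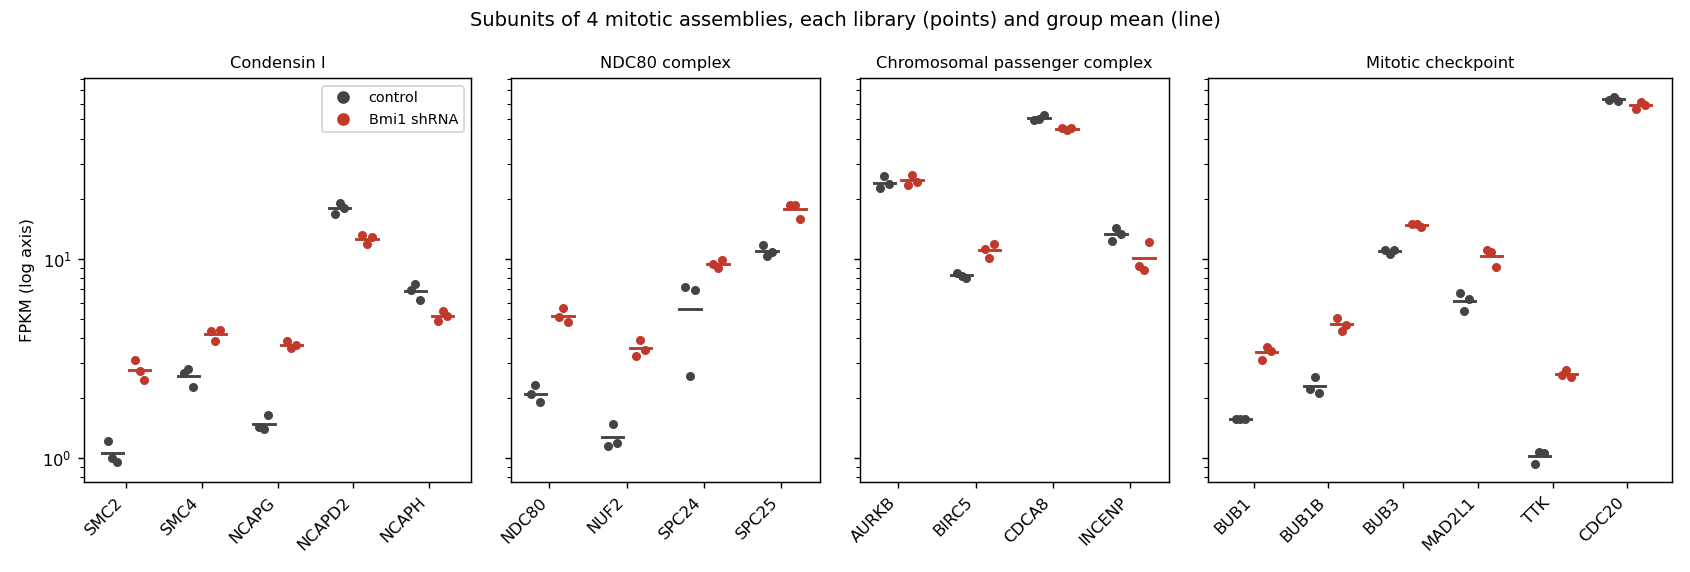
FPKM (log axis) of the subunits of condensin I, the NDC80 complex, the chromosomal passenger complex and the mitotic checkpoint; points are the 3 control (grey) and 3 Bmi1 shRNA (red) libraries, lines the group means. The less abundant subunits, such as SMC2, NUF2 and TTK, lie higher with Bmi1 shRNA, while NCAPD2, CDCA8 and INCENP lie lower and SPC24 has 1 low control.

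The least abundant members tended to show the largest rises. Across the 56 tested members Spearman's rho of log2 fold change with the mean control FPKM was -0.659, a description across genes that share libraries. These genes also differ in GC content. The control level is itself a term of the fold change, and KIF18A and KIF20B were tested only because of their treated values. Part of this relation is therefore built in. The mean of log2(FPKM + 1) over the tested members was 2.95 to 3.00 in the control libraries and 3.48 to 3.50 in the treated ones, while over all tested rows it was 2.99 to 3.00 and 3.01 to 3.04. The treated libraries were thus close to one another across the members as a whole. FPKM of the 60 genes summed to 711 to 729 in control and to 908 to 924 with Bmi1 shRNA, a sum to which UBE2C and CDC20 gave the most. In GENCODE 29, 26 of the 60 genes share exon sequence with another gene, 5 on the same strand and 23 on the other.

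**Figure D5:**
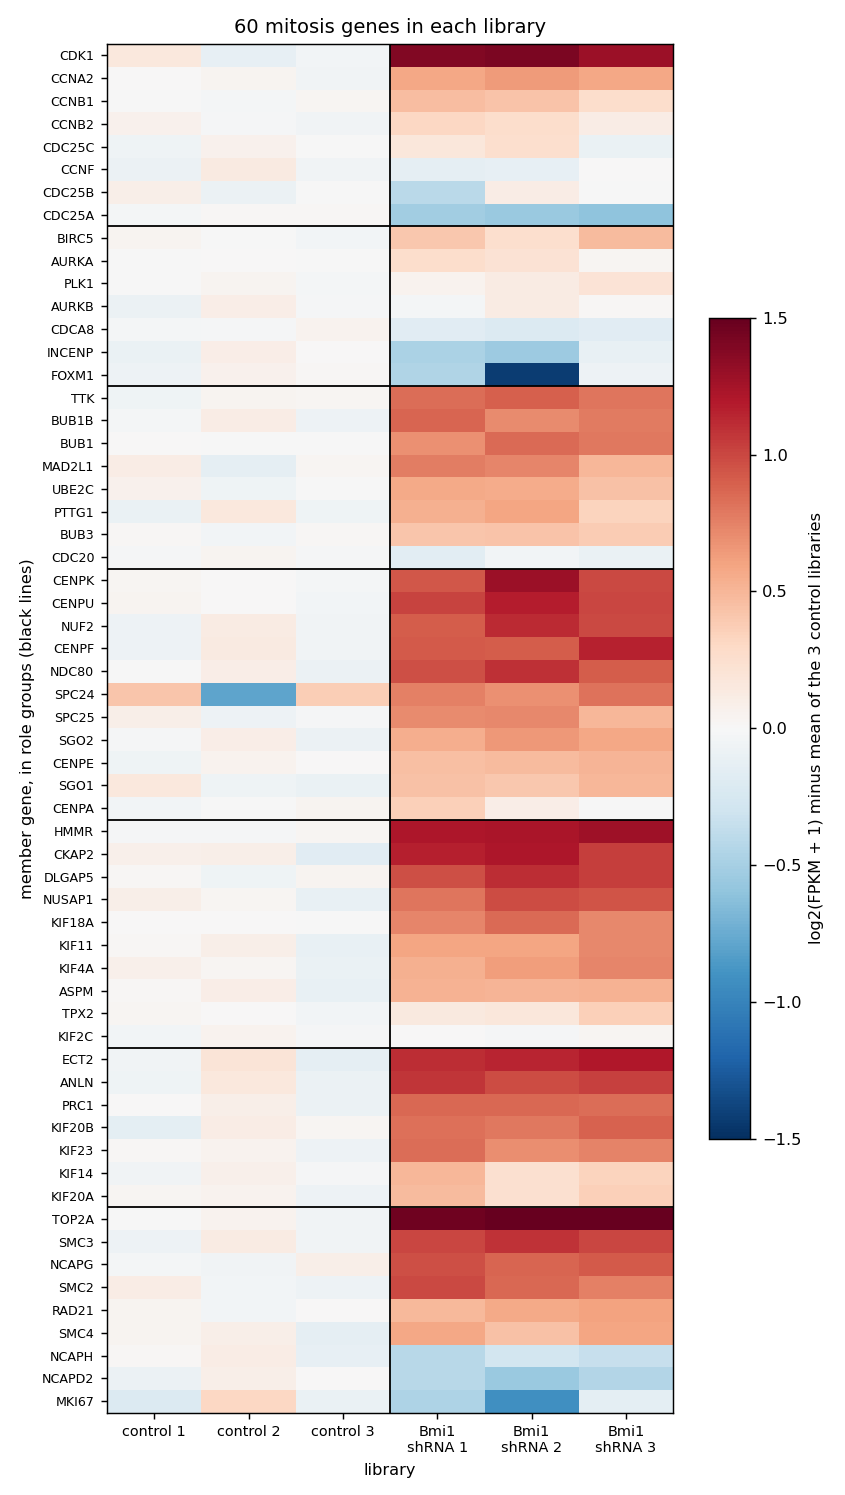
log2(FPKM + 1) of the 60 mitosis genes (rows, in role groups) in each library (columns), minus the mean of the 3 control libraries. Red rows fill the 3 treated columns for most genes; the exceptions with single odd libraries are FOXM1 (Bmi1 shRNA replicate 2), MKI67 and SPC24 (control replicate 2).

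A list of 147 other mitotic genes was set beside the members to see how far the direction extended. It too was chosen with earlier results of these data known. Of its genes, 125 were tested: 50 rose, 24 fell and 51 were not called, with a median log2 fold change of 0.19. That is 40% higher and 19.2% lower, against the 28.6% and 28.5% of all tested rows; with the GC and length trend removed 35 were higher and 13 lower (28% and 10.4%, against 19.1% and 20.5%). Of 27 centromere and kinetochore genes 15 rose and 1 fell (55.6% and 3.7%). Removal of the trend left 7 calls higher and 2 lower there (25.9% and 7.41%), and took the median log2 fold change from 0.36 to 0.04. CENPW, a centromeric histone-fold protein, and FBXO5 (EMI1), an inhibitor of the anaphase-promoting complex, both named after their values were seen, were called higher in the deposited values (log2 fold change 0.50 and 0.26) and lower with the trend removed (-0.48 and -0.27). SPDL1 (Spindly), a dynein adaptor, rose from 0.824 ± 0.0377 to 2.13 ± 0.193 FPKM (SD, n = 3 each). SPDL1, like BORA and LIN9 of this list, averaged under 1 FPKM in control and passed the filter only through its treated libraries. CENPP was called lower (1.57 ± 0.197 and 1.099 ± 0.215 FPKM; limma, adjusted p = 0.0434); the call was lost on omitting replicate 1 or 2 of either group (limma, adjusted p up to 0.121). Of 20 genes of the checkpoint and the anaphase-promoting complex 9 rose and 5 fell (45% and 25%), the falls near the 28.5% of all tested rows. CDC16 and CDC27, TPR subunits of that complex, rose 1.55-fold and 1.86-fold, whereas ANAPC2, its cullin subunit, and ANAPC5 fell to 0.7605 and 0.806 times control. With the trend removed neither was called (log2 fold change -0.12 and -0.13), nor were the other falls of that group. Of 11 cohesin and condensin genes 6 rose and 1 fell (54.5% and 9.09%). The cohesin subunits STAG2 and STAG1 rose from 2.05 ± 0.2403 to 5.22 ± 0.197 FPKM and from 1.53 ± 0.112 to 3.22 ± 0.339 FPKM, and CDCA5 (sororin), which stabilises cohesin on DNA, fell from 32.7 ± 1.15 to 23.4 ± 0.853 FPKM.

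Spindle and centrosome genes of that list gave 9 higher and 9 lower of 32. At 28.1% each way, this was near the 28.6% and 28.5% of all tested rows. With the GC and length trend removed 10 were higher and 1 lower (31.2% and 3.12%, against 19.1% and 20.5% of all genes). HAUS1 of the augmin complex rose from 3.04 ± 0.337 to 8.49 ± 0.0196 FPKM (SD, n = 3 each), and CEP55, which acts at abscission, 2.18-fold. TUBGCP2 and TUBGCP6 of the gamma-tubulin ring complex fell to 0.704 and 0.5502 times control, and neither was called with the GC and length trend removed. TUBGCP6 averaged under 1 FPKM with Bmi1 shRNA (0.955) and passed the filter only through its control libraries. Of 12 kinases and inhibitors of mitotic entry 8 rose and 2 fell (66.7% and 16.7%). Once the GC and length trend was taken out, 4 of those 8 rises and 1 of those 2 falls were still called. CKS1B, CKS2, ARPP19 and MELK lost their calls. This group's middle log2 fold change dropped from 0.33 to -0.02, so its rise did not outlast that step as a whole. PBK, a mitotic kinase, rose 2.34-fold and BORA, which activates Aurora A and PLK1, 2.54-fold. HASPIN, the histone H3 kinase of centromeres, fell from 4.56 ± 0.0634 to 3.22 ± 0.301 FPKM and was not called with the trend removed (log2 fold change -0.16). CDK2, a kinase of S phase, fell from 10.96 ± 0.2296 to 6.83 ± 0.808 FPKM and was called lower with the trend removed as well.

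The regulators that act on late cell cycle genes did not rise as a group: of 23 tested, 3 rose, 6 fell and 14 were not called. That is 13% higher and 26.1% lower, against 28.6% and 28.5% of all tested rows. LIN9 of the MuvB core rose from 0.9996 ± 0.195 to 2.31 ± 0.0374 FPKM (SD, n = 3 each), while LIN54, its DNA-binding subunit at CHR elements, stood at 1.44 ± 0.08104 and 1.602 ± 0.209 FPKM and LIN52 at 1.65 ± 0.131 and 1.36 ± 0.152 FPKM, neither called. LIN54 and LIN52 were called lower with the GC and length trend removed (log2 fold change -0.22 and -0.35), and LIN54 thereby changed sign. MYBL2 (B-MYB), the partner of MuvB in activation, stood at 84.5 ± 3.905 and 76.8 ± 4.55 FPKM and E2F1 at 40.8 ± 1.101 and 38.04 ± 0.159 FPKM, not called; both were called lower with libraries scaled to a total of 1000000 (limma, adjusted p = 0.0368 and 0.0208) and with quantile normalization (0.0214 and 0.0410). With the trend removed both turned to 0.12, not called. LIN52 was also called lower under those scalings (limma, adjusted p = 0.0462 and 0.0294). E2F4, the E2F of the DREAM complex, fell from 40.7 ± 2.41 to 25.9 ± 3.31 FPKM (0.637 times control; limma, adjusted p = 0.00241), and its dimer partner TFDP1 from 42.7 ± 2.87 to 32.5 ± 2.28 FPKM. The pocket proteins RBL1 and RBL2 stood at 1.25 ± 0.0649 and 1.499 ± 0.212 FPKM and at 4.37 ± 0.382 and 5.23 ± 0.417 FPKM, not called. RBL2 was called higher with upper quartile scaling (limma, adjusted p = 0.0350) and quantile normalization (0.0395), and RBL1 without Bmi1 shRNA replicate 2 (0.0453). NFYB, a subunit of NF-Y, rose 2.23-fold. CDKN1A, an inhibitor of CDKs, stood at 24.8 ± 0.939 and 21.7 ± 3.05 FPKM, with overlapping groups.

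Outside both lists, the 5 tested genes whose pattern over the 6 libraries was closest to that of TOP2A, the member with the smallest p, were NAA15, PRELID3B, DNAJC10, SERINC1 and GFM2. Likeness was the Euclidean distance of log2(FPKM + 1), centred and divided by the SD of each gene; it ran from 0.0563 for NAA15 to 0.0898 for GFM2. NAA15 went from 0.7196 ± 0.0349 to 2.199 ± 0.0457 FPKM (SD, n = 3 each) and SERINC1 from 3.23 ± 0.0709 to 9.82 ± 0.248 FPKM. NAA15 averaged under 1 FPKM in control and passed the filter only through its treated libraries.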

How the data were processed

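Paired-end sequencing of poly(A) RNA, per the labels' protocols, covered 3 libraries per group at 48 h. The values are FPKM as deposited by the authors. Bowtie 0.12.2, HISAT2 2.0 and StringTie 1.3.0 are named in the submitters' processing notes without roles, with the build mm8, a mouse build, though the organism is human; the build used is not settled. The table's Sc and Sh columns were read as control and knockdown by matching their numbers to the titles. Whole reads were sought in low values and not recovered (at most 2.46% of low rows shared one ratio to control replicate 1), so no count test was run. No 2 libraries were identical. Per the design text they are independent transfections of one line, so p-values measure only the spread between these.

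Group differences in log2(FPKM + 1) were tested with limma 3.58.1 (R 4.3.3) on 11016 rows averaging 1 FPKM or more, with group as the sole term, eBayes with a variance trend and Benjamini-Hochberg adjustment over all tested rows (called under 0.05). Fold changes in log2 understate the change of low genes; folds are ratios of mean FPKM. GC content and length of the longest coding transcript came from GENCODE 29 (GRCh38), known for 92.8% of tested rows and all 56 tested members; the trend was removed with natural splines of 5 degrees of freedom each. The members and lists were chosen with earlier results of these data known. Values are given in every library for at most 4 members per role group and direction, taken by p, those non-overlapping with a log2 change of at least 1, and those whose sign turned; others were added after their values were seen. Of the other mitotic genes, the up to 2 with the smallest p in each direction per role group and a set of regulators are named; a few of the genes these rules pick are not reported here. Alternatives covered pseudocount (0.1), filter (none or 5 FPKM), scaling, variance prior, library weights, replicate block, GC and length, a fold of 1.2 and each library left out. On simulated data built on 11016 rows of this comparison, 100 genes were given a log2 change of 0.5 and 100 a change of 1. Of these 57% and 80% passed, with 3 false calls. The simulation drew noise for each gene independently and held no GC trend. It changed far fewer rows than were called here, so these shares cannot be carried over to the data.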

Additional observations from a re-analysis of the deposited data

How the results depend on the processing

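Over 18 alternatives, 27 of the 44 called members kept direction and call in each alternative that tested them. The replicate numbers of the titles did not pair the libraries: deviations of same-numbered libraries correlated at -0.0791 to 0.00374, and none correlated best with its own number. With the replicate block 38 members were called higher and 4 lower, CDCA8 and TPX2 being lost. With the GC and length trend removed the falls went from 5 to 2 among members and from 24 to 13 among other mitotic genes, the rises of all tested genes from 3152 to 1957, and the members' median from 0.61 to 0.31. With that removal and the replicate block together, 1 member was called lower, 1573 of all genes higher and 1568 lower, 29 other mitotic genes higher and 11 lower, with a median of 0.31. Of genes called in the deposited values, the sign turned with the trend removed for 1 member, SPC25 (-0.0805), and for 9 other mitotic genes, among them CENPP (0.0830); of genes called only after it, it turned for CCNF (0.26), LIN54 (-0.22) and others. These values of SPC25, CENPP and CCNF were the same with the block. Several uncalled genes turned too, CDC25B, CENPA and AURKB among the members. With a mean of at least 5 FPKM fewer genes are tested: 20 of 37 members rose, 1631 of all genes rose and 1847 fell, and 23 other mitotic genes rose and 13 fell, the members' median being 0.36. A pseudocount of 0.1 gave a median of 0.69. Against a fold of 1.2, 1 member was lower, 1418 of all genes higher and 872 lower, and 27 other mitotic genes higher and 3 lower. Leaving out 1 library gave 37 to 40 members higher and 3 to 7 lower, a median of 0.58 to 0.62, 45 to 50 other mitotic genes higher and 17 to 27 lower, and 2724 to 2982 of all genes higher and 2484 to 3140 lower; BMI1 ranged from -1.59 to -1.22 and stayed called. With no filter CCNB2, INCENP and TPX2 were not called. The causes were not tested. Read depth is unknown, so the precision of members near 1 FPKM cannot be stated.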
